A study of Paxillus involutus with 18 samples.

Results

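The study listed 3 raised isotigs as ferric reductases, paxillus_2315, paxillus_2317 and paxillus_7671, out of 12214 measured isotigs (assembled transcripts) of *Paxillus involutus*. paxillus_2315 and paxillus_2317 belong to one isogroup (gene) and paxillus_7671 to another, so the 3 isotigs stand for 2 genes. The annotation as ferric reductase is the study's own, and the deposited files pair no isotig with a description. Ferric reductases that the study did not list may therefore be among the other isotigs. The 3 isotigs were selected on measured values, since the study listed annotated isotigs with a rise of over 2-fold on at least 1 of its organic matter extracts. The changes on the 3 extracts are therefore given below as a description, without a test.

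Ferric reductases are membrane proteins that carry electrons from NADPH across the membrane, through FAD and haem, to ferric iron outside the cell. In *Saccharomyces cerevisiae* they release iron from ferric chelates and siderophores as ferrous iron, which a ferroxidase and an iron permease then take up. Ferrous iron is also the partner of hydrogen peroxide in the Fenton reaction, which gives hydroxyl radicals, and brown-rot fungi use that reaction on plant polymers. The role of the 3 isotigs in *Pa. involutus* is known here only through the study's annotation.

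The wild-type strain ATCC 200175 had 9 days on glass beads in the mineral medium MMN, which holds glucose, ammonium and ferric chloride, followed by 24 h without N. The mycelium was held for 7 more days in a hot water extract of spruce forest litter (FH), in a hot (MH) or cold (MC) water extract of maize compost, in carboxy methyl cellulose (CMC), or in MMN. The extracts and the CMC medium had been supplemented with glucose, and the extracts had been freed of molecules under 10 kDa. Of the 18 arrays, 9 were on slide 1 (FH, MH and MMN) and 9 on slide 2 (MC, CMC and MMN), with 3 per medium and slide. One MC array, replicate 3, is described as MH in its free text, but was kept as MC by its title, source and medium. Without it the log2 fold changes on MC were 1.26 for paxillus_2315, 1.36 for paxillus_2317 and 0.65 for paxillus_7671, against 1.28, 1.34 and 0.65 with it.

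Levels are log2 values made with robust multi-array average (RMA), which subtracts background, equalises the distribution of values between arrays and combines an isotig's probes into 1 value. The median isotig had a level of 11.45 to 11.47 on an array, and random control probes, a measure of background, averaged 3.69 to 3.85. Each of the 3 ferric reductase isotigs had 10 probes. The replicates are labelled biological, but where their cultures parted is not stated, so p-values cover the spread between these arrays only.

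All 3 ferric reductase isotigs were lowest on MMN, and no array of another medium came down to the MMN arrays of its slide. The levels of paxillus_2315 were 14.28, 14.47 and 14.43 on MH and 13.59, 13.49 and 13.66 on FH, against 13.23, 12.86 and 13.34 on MMN of the same slide. On the other slide they were 14.42, 14.34 and 14.45 on MC and 13.94, 13.96 and 13.91 on CMC, against 13.12, 12.84 and 13.41 on MMN. The arrays of both compost extracts thus stood at the top, those of CMC lay between, and those of FH were nearest to MMN.

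The levels of paxillus_2317, the other transcript of the same gene, followed this order. They were 14.11, 14.29 and 14.27 on MH and 13.59, 13.58 and 13.46 on FH, against 13.06, 12.88 and 13.34 on MMN. On the other slide they were 14.50, 14.27 and 14.31 on MC and 13.91, 13.93 and 13.89 on CMC, against 13.04, 12.73 and 13.30 on MMN. MH and MC arrays overlapped in this isotig, as in paxillus_2315, whereas CMC lay apart from MC and FH apart from MH.

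By mean level the second gene, paxillus_7671, also had the compost extracts at the top, then CMC and FH, but the media lay closer together within each slide. Its levels were 12.50, 12.59 and 12.60 on MH and 12.23, 12.18 and 12.29 on FH, against 11.42, 11.46 and 11.83 on MMN. On the other slide they were 12.34, 12.47 and 12.42 on MC and 12.27, 12.33 and 12.26 on CMC, against 11.67, 11.57 and 12.02 on MMN. MH stood at the top here, with its lowest array at 12.50 and the highest MC array, on the other slide, at 12.47. MC and CMC were separated by only 0.01 between the lowest MC and the highest CMC array, and CMC overlapped with FH. The MMN mean of paxillus_7671 was 0.19 higher on slide 2. Against the MMN arrays of the other slide its log2 fold change was 0.84 on MC, 0.81 on MH, 0.72 on CMC and 0.48 on FH. The order of its log2 fold changes between slides thus depended on the MMN arrays used.

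**Figure D1:**
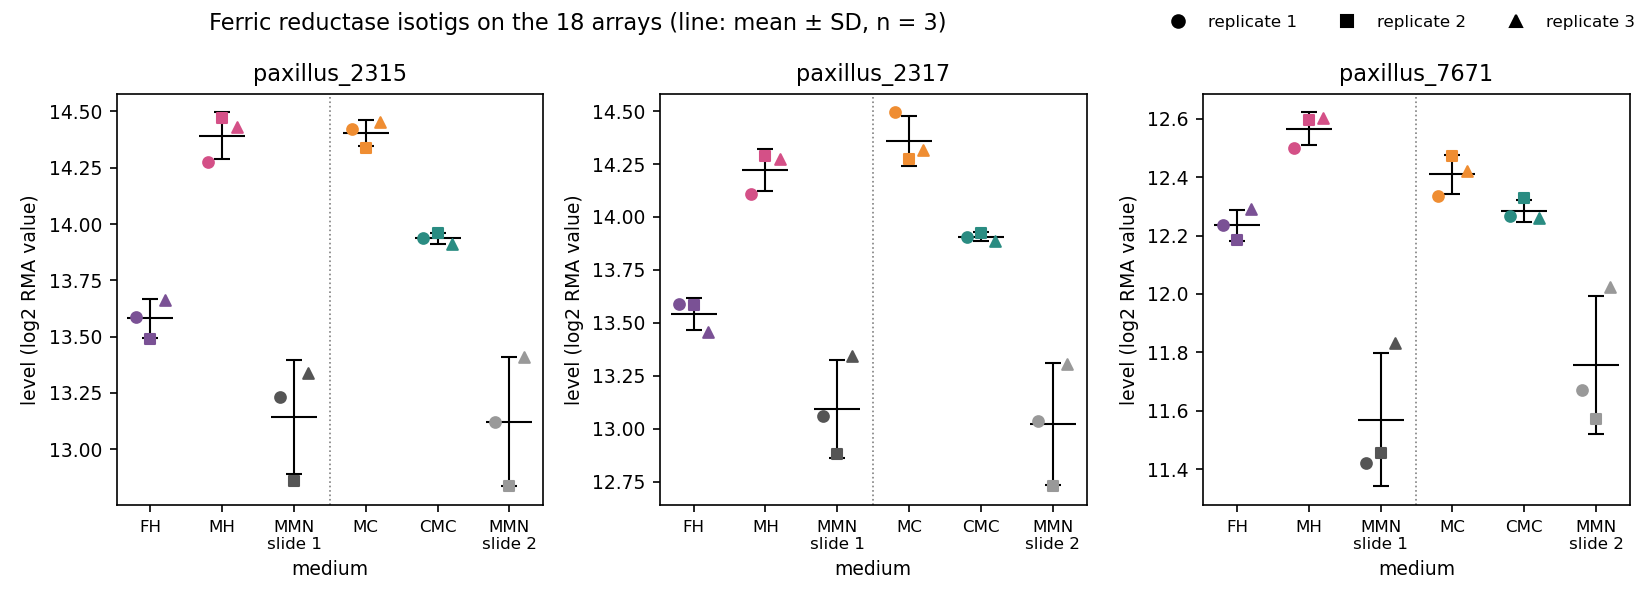
Level of each ferric reductase isotig on each of the 18 arrays (log2 RMA value), by medium, with FH, MH and MMN of slide 1 left of the dotted line and MC, CMC and MMN of slide 2 right of it. Points are single arrays and lines the mean ± SD (n = 3); the MMN arrays are lowest and most widely spread in every panel, and the y axes differ between panels and do not start at 0.

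Set against the MMN mean of its slide, the gene of paxillus_2315 and paxillus_2317 changed most on the compost extracts. On MC the log2 fold change was 1.28 for paxillus_2315 and 1.34 for paxillus_2317, and on MH it was 1.25 and 1.13 (standard error 0.12 for each). On FH it was 0.44 and 0.45, with the same standard error. In paxillus_7671 the log2 fold change was 1.00 on MH, 0.67 on FH and 0.65 on MC (standard error 0.10 for each), and FH and MC did not differ beyond their error. With MMN averaged per culture number over both slides paxillus_7671 had 0.75 on MC and 0.57 on FH. Its levels on the MC arrays, the lowest at 12.34, all lay above those on the FH arrays, the highest at 12.29. Both readings set slide 2 beside slide 1, and the MMN mean of this isotig was 0.19 higher on slide 2.

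A call required both a change over 2-fold and an adjusted p under 0.01. On MH and MC, paxillus_2315 and paxillus_2317 passed it, 2 of 3 isotigs, and on FH none did. Thus paxillus_7671 passed on no extract in this fit, although the study's list required a rise of over 2-fold on at least 1. Of all isotigs 4.49% were called higher on MH, 2.81% on MC and 0.966% on FH. These extract comparisons chose the isotigs, so nothing is read from the counts. On MH, paxillus_2317 lay just inside the fold threshold at 2.19-fold and paxillus_7671 just outside it at 1.995-fold. Without MMN replicate 3 of slide 1, paxillus_7671 was called on MH at a log2 fold change of 1.13, and without MH replicate 1 at 1.03. It was also called with arrays centred on their median, at 1.01. If the threshold of the study is read on a natural logarithm, 1.62-fold suffices, and paxillus_7671 passes it on MH alone among the extracts.

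For all 3 isotigs the 3 arrays lay above the 3 MMN arrays of the slide on each extract, as they did in 23% of all isotigs on FH, 32.9% on MH and 26.3% on MC. By size of the rise, paxillus_2317 ranked 146 and paxillus_2315 168 of 12214 isotigs on MC, with paxillus_7671 at 795. On MH paxillus_2315 ranked 279, paxillus_2317 385 and paxillus_7671 555. On FH paxillus_7671 ranked highest of the 3, at 410, with paxillus_2317 at 912 and paxillus_2315 at 951. The median log2 fold change of the 3 isotigs was 1.28 on MC, 1.13 on MH and 0.45 on FH, beside -0.07, -0.06 and -0.06 over all isotigs. As the isotigs were chosen for a rise on these extracts, nothing is read from the ranks or medians. In addition, 2 of the 3 isotigs are of 1 gene.

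**Figure D2:**
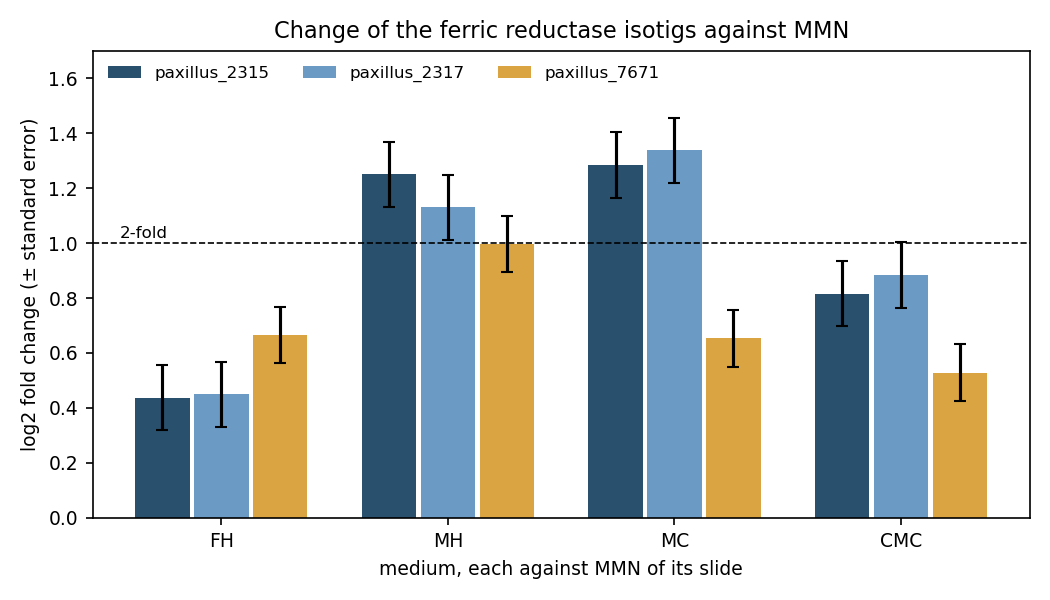
Log2 fold change of the 3 ferric reductase isotigs in each medium against the 3 MMN arrays of the same slide, with the standard error of the linear model and a dashed line at 2-fold. The bars of paxillus_2315 and paxillus_2317 pass the line on MH and MC, those of paxillus_7671 do not, and on FH paxillus_7671 has the highest of the 3 bars.

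The CMC arrays took no part in the choice of the isotigs, and on this medium all 3 rose. The log2 fold change of paxillus_2317 on CMC was 0.88 (standard error 0.12, adjusted p = 9.5e-06 from limma), or 1.85-fold. That of paxillus_2315 was 0.82 (standard error 0.12, adjusted p = 2.4e-05 from limma), or 1.76-fold. paxillus_7671 rose least, by 1.44-fold, or 0.53 on the log2 scale (standard error 0.10, adjusted p = 4.0e-04 from limma). At an adjusted p under 0.01, 19% of all isotigs were higher on CMC, and 25.8% had all 3 CMC arrays above all 3 MMN arrays, as the 3 ferric reductase isotigs had. None of the 3 passed 2-fold on CMC, where 1.66% of all isotigs were called higher at both thresholds. Without MMN replicate 3 of slide 2 paxillus_2317 did, at 1.02. The CMC and MC comparisons share their MMN arrays, so the CMC values are not independent of an extract comparison that chose the isotigs. In an exact two-sided permutation test over the 3 CMC and 3 MMN arrays each isotig had p = 0.10, the smallest that this design allows.

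Among all isotigs, the rise on CMC ranked paxillus_2317 at 288, paxillus_2315 at 347 and paxillus_7671 at 863 of 12214. Their median log2 fold change on CMC was 0.82, beside -0.07 over all isotigs. For paxillus_2315 and paxillus_2317 the log2 fold change on CMC exceeded that on FH by 0.38 and 0.43 (standard error 0.17 for each), while for paxillus_7671 the difference, -0.14, was within its standard error of 0.15. Its sign turned with the choice of MMN arrays, since paxillus_7671 had 0.62 on CMC and 0.57 on FH with MMN averaged per culture number over both slides. Within slide 2, the level on MC minus that on CMC was 0.47 for paxillus_2315, 0.45 for paxillus_2317 and 0.12 for paxillus_7671 (standard errors 0.12, 0.12 and 0.10).

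**Figure D3:**
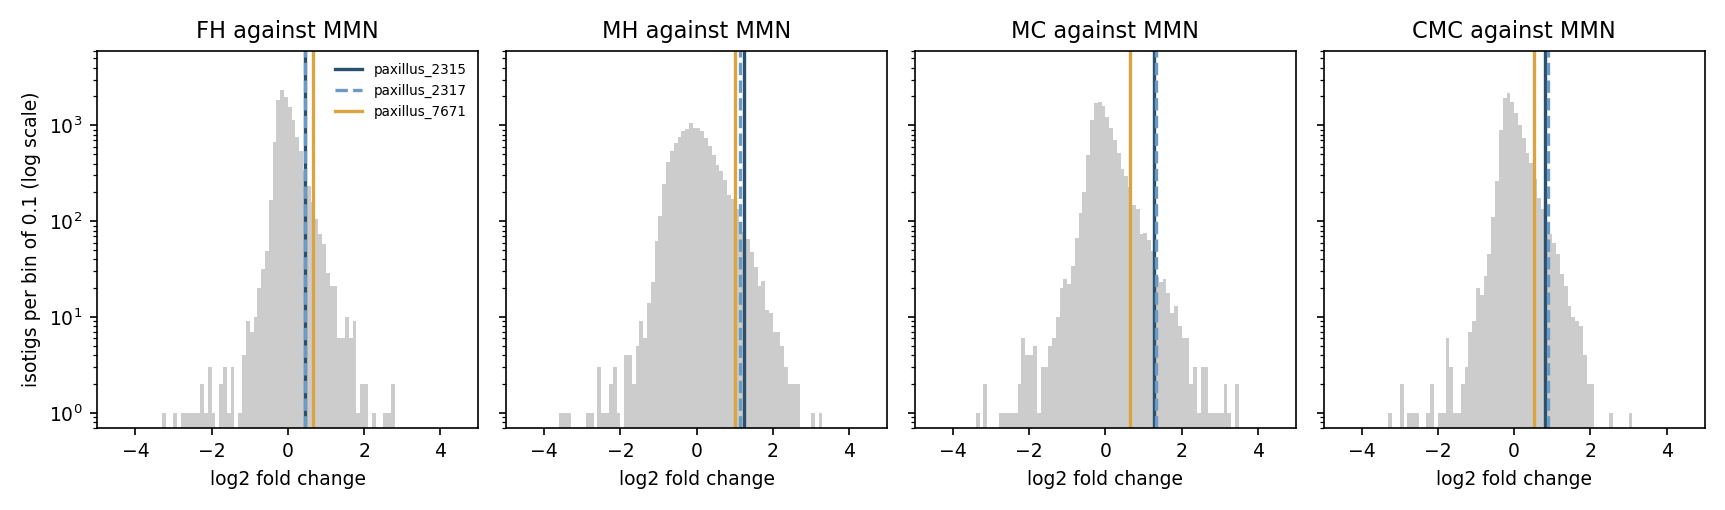
Distribution of the log2 fold change of all 12214 isotigs in each medium against MMN, in bins of 0.1 with the number of isotigs on a log scale, and the 3 ferric reductase isotigs as vertical lines. All 3 lie on the upper flank in every medium, with paxillus_7671 to the right of the other two lines on FH and to their left on MH, MC and CMC.

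The responses of both transcripts of one gene were close. On each array the difference paxillus_2315 minus paxillus_2317 was taken, and its shift from MMN is the difference of their log2 fold changes. On CMC this was -0.07 (95% interval -0.22 to 0.09, exact two-sided permutation p = 0.10, the smallest possible). It was 0.12 on MH, -0.05 on MC and -0.01 on FH, with a standard error of 0.07. On MH the 3 arrays agreed closely, with differences of 0.17, 0.18 and 0.16, and on FH they did not, with 0.00, -0.09 and 0.21. How far their probes share sequence was not examined, so both isotigs may read some of the same transcripts.

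The responses of the genes were further apart. The log2 fold change of paxillus_7671 minus the mean of paxillus_2315 and paxillus_2317 was -0.66 on MC, -0.19 on MH and 0.22 on FH (standard error 0.08 for each). On CMC it was -0.32 with the same standard error, from a mean difference of -1.64 ± 0.02 on CMC, against -1.32 ± 0.10 on MMN (SD, n = 3 each), and all 3 CMC arrays lay below all 3 MMN arrays in this difference (exact two-sided permutation p = 0.10, the smallest possible). Against the MMN arrays of the other slide the values were -0.01 on FH, -0.43 on MH, -0.43 on MC and -0.09 on CMC, so paxillus_7671 remained below the pair on the compost extracts, while its lead on FH was not seen and its lag on CMC shrank.

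**Figure D4:**
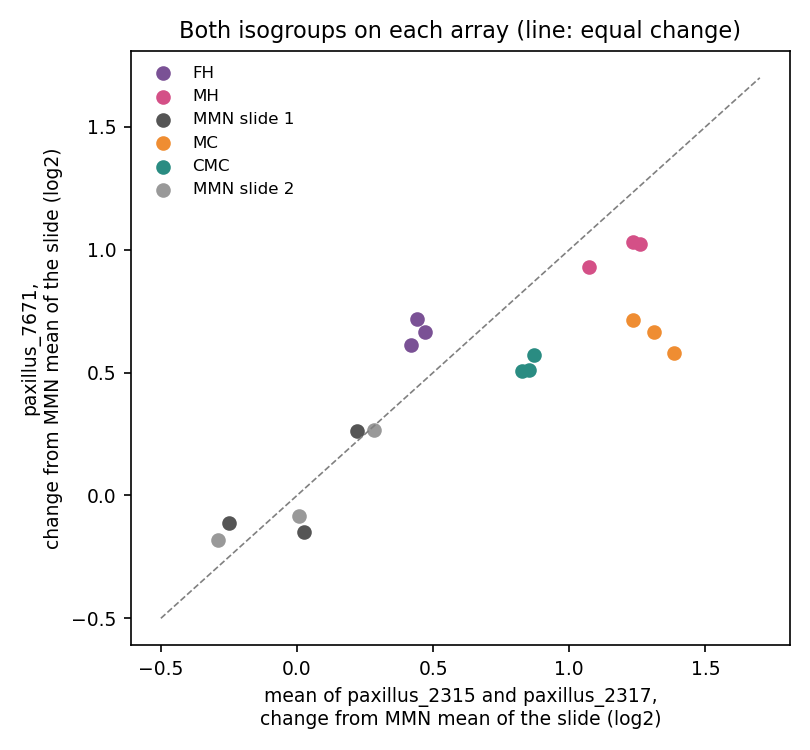
Change of each of the 18 arrays from the MMN mean of its slide (log2), for the mean of paxillus_2315 and paxillus_2317 on the x axis and paxillus_7671 on the y axis, with a dashed line of equal change. The FH arrays lie above the line, the MH, CMC and MC arrays below it, with MC farthest from it, and the MMN arrays spread around it.

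The control cultures varied more in the ferric reductases than the mycelium on any other medium. The SD of paxillus_2315 was 0.02 on CMC, 0.06 on MC, 0.09 on FH and 0.10 on MH, against 0.25 on MMN of slide 1 and 0.29 on MMN of slide 2 (n = 3 each). That of paxillus_7671 was 0.04, 0.07, 0.05 and 0.06 on the same media, against 0.23 and 0.24 on MMN. On MMN the SDs of the 3 isotigs lay above those of 95.6% to 97.8% of all isotigs, whose median SD was 0.08 on slide 1 and 0.07 on slide 2. On CMC they lay above only 7.8% to 22.5%. The linear model pools the spread of all groups, so its standard errors overstate the spread on CMC and understate that on MMN. These errors do not cancel, because the MMN arrays enter every comparison. For paxillus_2315 the pooled SD was 0.17, below the 0.29 on MMN of slide 2. The standard errors and limma p-values of the 3 isotigs on CMC are therefore likely too small.

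MMN replicate 3 was highest in all 3 isotigs on both slides, and replicate 2 was lowest except for paxillus_7671 on slide 1. Replicate numbers recur on the MMN arrays of both slides, which may hold the same cultures. For paxillus_2315 and paxillus_2317 the order of the MMN replicates was the same on both slides, as for 33.0% of all isotigs. The MMN mean on slide 2 minus that on slide 1 was -0.02 for paxillus_2315 and -0.07 for paxillus_2317 (standard error 0.12 for each). For paxillus_7671 it was 0.19 (standard error 0.10), and slide 2 was higher in replicates 1, 2 and 3 by 0.25, 0.12 and 0.19. Against the MMN arrays of the other slide, the log2 fold change of paxillus_7671 was 0.84 on MC and 0.72 on CMC, and 0.48 on FH and 0.81 on MH.

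Across the 18 arrays the level of paxillus_2315 had Pearson r = 0.99 with paxillus_2317 and 0.92 with paxillus_7671, as a description over arrays that share media. After the mean of each medium and slide was taken off, r was 0.86 between paxillus_2315 and paxillus_2317, 0.77 between paxillus_2315 and paxillus_7671 and 0.75 between paxillus_2317 and paxillus_7671. Over the 12 arrays of the other media alone these were 0.33, 0.53 and -0.26, each lower than with the MMN arrays.

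The isotigs most like the mean of paxillus_2315 and paxillus_2317 over the 18 arrays were paxillus_3860, with r = 0.98, paxillus_8426, with 0.98, and paxillus_6798, paxillus_7914 and paxillus_1777, each with 0.97. For paxillus_3860 the log2 fold change was 1.18 on MH, 1.17 on MC, 0.72 on CMC and 0.50 on FH. Those most like paxillus_7671 were paxillus_867, paxillus_1575 and paxillus_4540, with r = 0.98 each, and paxillus_14 and paxillus_7764, with 0.97 each. For paxillus_867 the log2 fold change was 0.80 on MH, 0.54 on CMC and 0.51 on both FH and MC. None of these 10 has a description in the files. An r over 0.9 was reached by 429 isotigs with the mean of paxillus_2315 and paxillus_2317 and by 612 with paxillus_7671, 279 of them common to both, so a likeness of this degree is frequent on these arrays.

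Isotigs of siderophores, an iron permease and phenylalanine ammonia lyase were compared on CMC, which did not choose them, although its MMN arrays are those of MC. Siderophores are chelators that bind ferric iron, and what the protein of siderophore isotig paxillus_300 does with them is not described here. Its transcript level is not a level of the chelator. The levels of paxillus_300 were 12.68, 12.74 and 12.63 on CMC, against 11.53, 11.31 and 11.58 on MMN. It was called higher by limma at adjusted p = 1.7e-09, and its log2 fold change was 1.21 (standard error 0.08). Its r with the mean of paxillus_2315 and paxillus_2317 over the 18 arrays was 0.96, and 9 isotigs outside the 3 ferric reductases had a higher one. These arrays include those of the extracts, which chose paxillus_300 and the ferric reductases alike, so nothing is read from this r. The other siderophore isotig, paxillus_6835, did not pass the test on CMC, where its log2 fold change was 0.13 (standard error 0.07) at adjusted p = 0.105 from limma.

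Iron permease paxillus_2900, of the proteins that take up iron, departed most from the ferric reductases. Its log2 fold change was 0.72 on CMC (standard error 0.07, adjusted p = 1.4e-07 from limma), within the range of theirs. On MC, where the log2 fold changes of paxillus_2315 and paxillus_2317 were 1.28 and 1.34, that of paxillus_2900 was -0.01. Its levels there were 11.51, 11.62 and 11.55, against 11.53, 11.42 and 11.75 on MMN. The MMN mean of paxillus_2900 was 11.57 on slide 2 and 11.37 on slide 1, so its change on MC depends on the MMN arrays used. The r of paxillus_2900 with the mean of paxillus_2315 and paxillus_2317 was 0.38. Phenylalanine ammonia lyases paxillus_5484 and paxillus_5485, which take ammonia from phenylalanine in the route to phenolic pigments, were called higher on CMC with log2 fold changes of 1.31 and 1.37 (adjusted p = 2.5e-07 and 5.4e-09 from limma). On MC theirs were 2.63 and 2.73. Of these 5 isotigs, paxillus_300 and both phenylalanine ammonia lyases were called higher and none lower on CMC, where 1.66% of all isotigs were called higher. Without the fold threshold 4 of the 5 passed, beside 19% of all isotigs, and their median change was 1.21 on the log2 scale, beside -0.07 over all isotigs. On FH, MH and MC, which chose them, 2, 3 and 3 were called higher and none lower, where 0.966%, 4.49% and 2.81% of all isotigs were called higher. The study picked these isotigs on these samples, so their direction is not independent evidence.

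**Figure D5:**
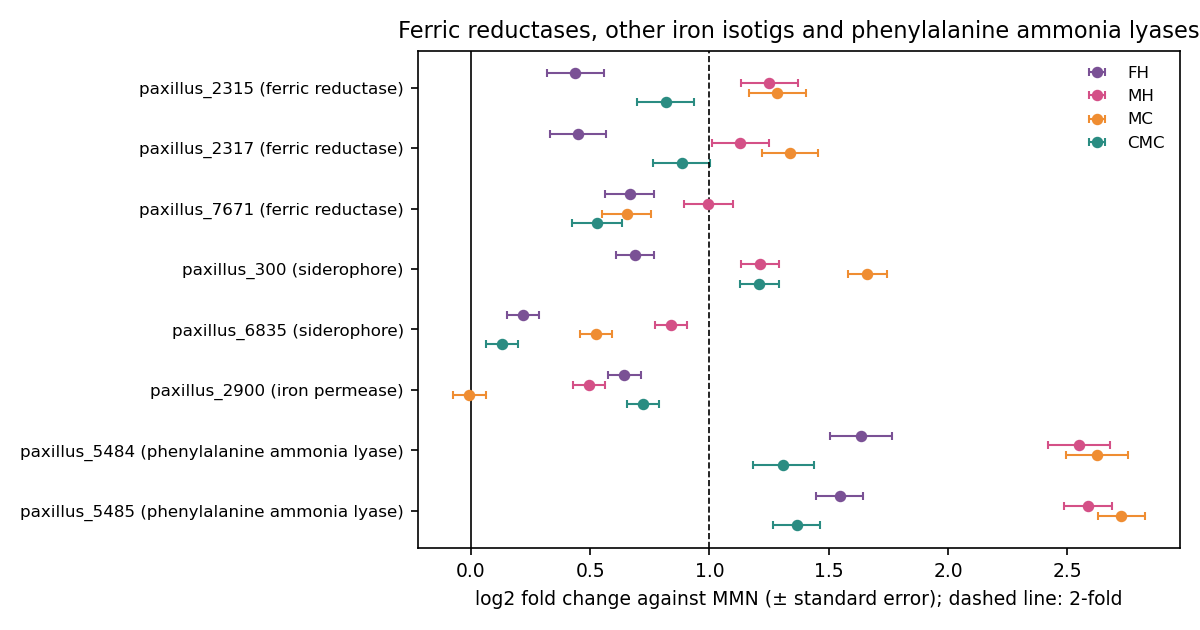
Log2 fold change against MMN of the same slide, with its standard error, for the 3 ferric reductase isotigs, 2 siderophore isotigs, 1 iron permease and 2 phenylalanine ammonia lyases in the 4 media, with a dashed line at 2-fold. The points of iron permease paxillus_2900 run from -0.01 on MC to 0.72 on CMC, where those of paxillus_2315 run from 0.44 on FH to 1.28 on MC.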

How the data were processed

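The authors deposited 1 log2 value per isotig and array, made with RMA from one-colour NimbleGen arrays. The deposited values were read as log2, because a natural logarithm would put 63.5% to 66.3% of isotigs above a 16-bit scanner image. The deposited column with the number of probes per isotig (unit other) was used to describe the array. The sources used here give neither the version of the RMA software nor the test behind the study's list.

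Fits used limma 3.58.1 in R 4.3.3 (lmFit, eBayes) on all 12214 isotigs, with 6 group means and 12 residual degrees of freedom. Contrasts were taken within a slide and p-values adjusted by Benjamini-Hochberg over all isotigs. Alternatives changed the MMN arrays, array scaling, threshold scale, block and array weights, or left out arrays in turn. The number of arrays limits the precision. Differences between isotigs used pooled variances over 6 groups and exact permutation tests. The 3 isotigs, the 5 other isotigs and the tests were chosen with earlier results of these data known. Named isotigs are these and the 5 with the highest r to each gene. Quinate transporters and the study's other iron isotigs were not used here, and sequences were not at hand.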

Additional observations from a re-analysis of the deposited data

How the results depend on the processing

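The 12 log2 fold changes of the ferric reductases stayed above 0 in all 252 alternative values, and 249 of these moved by less than 1 SD or, on CMC, stayed under the adjusted p of 0.01. The 3 others were those of paxillus_7671 against the MMN arrays of the other slide, with 0.48 on FH, 0.81 on MH and 0.84 on MC. Its value on CMC also moved by more than 1 SD there, from 0.53 to 0.72, but CMC was judged by the adjusted p. By construction, changes to the threshold, the isotigs fitted, the variances, the block or the array weights left each log2 fold change as it was. So did fitting only a medium and the MMN arrays of its slide. Leaving out both MMN arrays of a replicate number repeated the values of leaving out 1 array. The 252 values thus include many that could not move. On CMC the adjusted p from limma ranged over the alternatives up to 6.4e-04 for paxillus_2315, 4.2e-04 for paxillus_2317 and 0.0036 for paxillus_7671. The number of ferric reductase isotigs called higher on CMC was 0, and 2 with 2-fold read on a natural logarithm (1.62-fold on the log2 scale), a reading under which paxillus_7671 was called on MH too. That reading called 368 of all isotigs higher on FH, 1185 on MH, 708 on MC and 504 on CMC, where the log2 reading called 118, 549, 343 and 203. Leaving out 1 array gave 0 to 1 on CMC, with 1 without MMN replicate 3 of slide 2 and also, chosen after seeing the data, without both MMN arrays of replicate 3. The lag of paxillus_7671 behind the other gene on CMC, -0.32, was -0.20 with MMN averaged per culture number and -0.089 with MMN of the other slide, and the cause was not tested.

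Media and MMN share replicate numbers, and the deviations of same-numbered arrays over all isotigs had r from -0.28 to 0.22, and not every pair of a medium was over 0.1, so the numbers were not taken to pair them. MH was the 1 medium whose arrays all correlated best with their same-numbered MMN array, with r of 0.19, 0.03 and 0.08. With the replicate block, paxillus_2317 on CMC had a log2 fold change of 0.88 (adjusted p = 4.7e-05 from limma), and no call changed. MMN arrays of both slides had r of 0.26, 0.45 and 0.49 by number, and no call changed with the culture as a random block on MMN. Array weights per group, also added after seeing the data, changed none.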
